A study of Mus musculus with 11 samples.

Results

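The Atxn7l3-/- MEFs of the series were compared with its Atxn7l3-/- mESCs, as 6 of the 11 poly(A)+ RNA-seq libraries, 3 per cell type. The libraries were chosen by the cell type and genotype in their labels alone, and no expression value entered the choice. The mESCs (mouse embryonic stem cells) are pluripotent cells derived from individual blastocysts, grown on feeders for the first passages and then without them, with leukaemia inhibitory factor (LIF), 15% foetal calf serum and the inhibitors PD0325901 (1 µM) and CH99021 (3 µM). The MEFs (mouse embryonic fibroblasts) were grown in 10% serum from E10.5 embryos from which the head and the gastrointestinal tract had been taken out, each embryo giving its own culture. Both cell types came from a mixed DBA/2 x C57BL/6 background, both are labelled with the constitutive Atxn7l3-/- null genotype, and neither received any further treatment. The cell type, the medium and the stage of origin changed together, so their parts in any difference cannot be told apart. Sex-linked genes, given below, were not matched between the groups either, and the part of sex in the differences was not tested. The WT libraries, 2 of mESCs and 3 of MEFs, served for the check of the targeted gene and for the test of whether the gap between cell types differed between genotypes. "KO mESCs" and "KO MEFs" stand for the libraries labelled Atxn7l3-/-, and per-library values are always in the order of libraries 1, 2 and 3.

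Pluripotency rests on a small network of transcription factors around Oct4 (Pou5f1), Sox2 and Nanog, to which the naive state adds factors such as Esrrb, Tfcp2l1, Klf4 and Tbx3 that are held up by LIF and by inhibition of MEK and GSK3. Fibroblasts are mesenchymal cells that secrete and cross-link collagen matrix, contract through smooth muscle-type actin fibres, and keep the Hox code of the body region they came from. ATXN7L3 is the adaptor that activates the deubiquitinases USP22, USP27X and USP51 towards monoubiquitinated histone H2B.

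The targeted gene was read first, since it checks the labels. On the scale of all 11 libraries, Atxn7l3 was at 197 and 203 CPM (read counts scaled to a common, TMM-normalised library size) in WT mESCs and at 3.34, 1.61 and 0.833 in KO mESCs. In MEFs it was at 86.6, 117 and 104 in WT and at 56.5, 55.5 and 73.3 in the libraries labelled Atxn7l3-/-. KO libraries of both cell types were thus below all WT libraries of their own cell type, but the reads that remained in KO MEFs were far above those in KO mESCs. On the scale of the 6 KO libraries the difference was 5.02 ± 0.53 (SE, adjusted p = 0.000182) on the log2 scale, MEF minus mESC, the sign used throughout. Which part of the transcript these reads come from was not tested, because the tables hold 1 count per gene.

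The 6 libraries held 35050190 to 45963728 counts, of which 99.7% to 99.96% fell in the 26398 genes that both cell types' tables list, and 3 counts, taken as the floor, corresponded to 0.0653 to 0.0859 CPM. Across genes, Spearman's rho was 0.956 to 0.979 between libraries of 1 cell type and 0.698 to 0.737 between cell types, with no pair close to sampling noise. KO mESC 3 stood apart in sex-linked and germline genes and KO MEF 3 in mesenchymal genes, as given beside those results. Of 16540 genes tested with edgeR's quasi-likelihood test, 4416 (26.7%) were called higher in KO MEFs and 4516 (27.3%) higher in KO mESCs, at an adjusted p of 0.05 or less and a 2-fold change. At 32-fold the numbers were 972 (5.88%) and 1048 (6.34%). The median log2 fold change of all genes was -0.05 and the median size of the change 1.32. The 31 gene lists described here hold 427 different genes, of which 350 were tested, 160 called higher in KO MEFs and 91 called higher in KO mESCs.

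**Figure D1:**
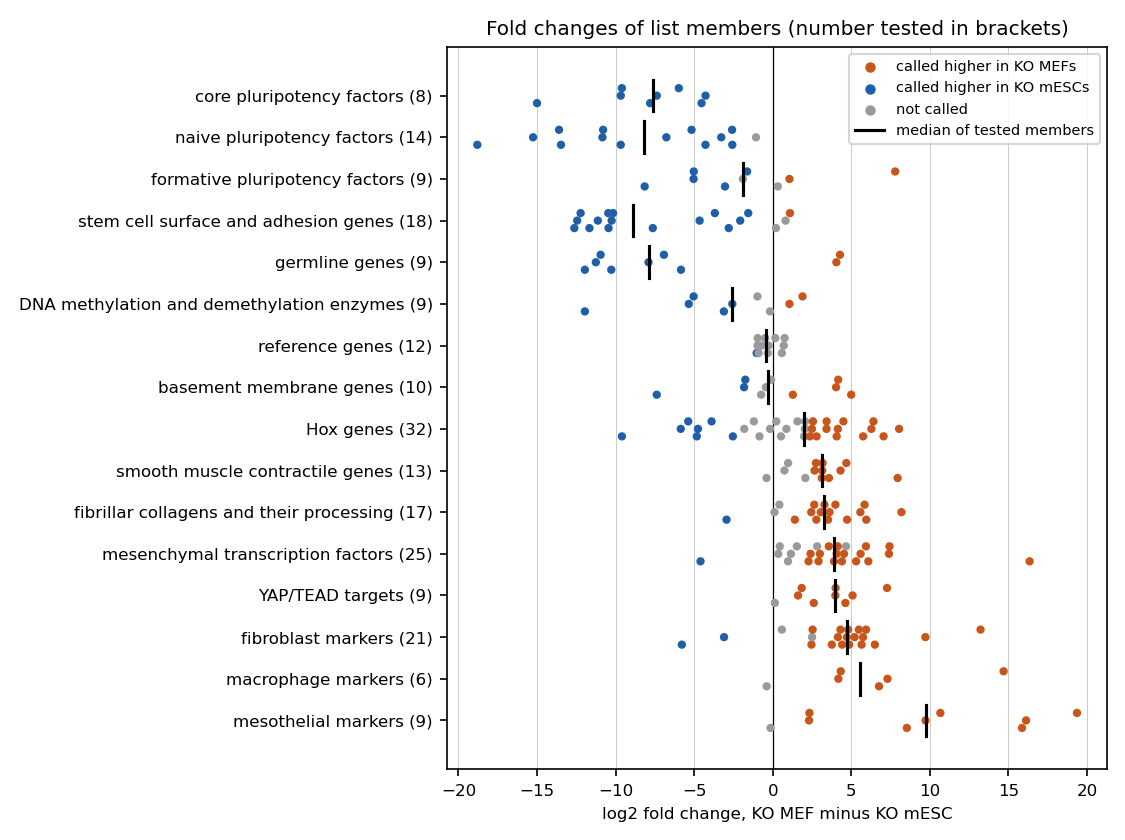
Each point is a tested member of a gene list, placed on the horizontal axis by its log2 fold change, KO MEF minus KO mESC, with orange for members called higher in KO MEFs, blue for those called higher in KO mESCs and grey for the rest, and a black bar at the list's median. The core pluripotency list has its median at -7.59 and the fibroblast list at 4.72, while the reference genes lie around -0.40 and the Hox genes spread from -9.59 to 8.04.

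The stem cell identity genes separated the KO cell types without exception among the core factors that could be tested. All 8 tested members of the core pluripotency list were called higher in KO mESCs, 6 of them by 32-fold or more, with a median log2 fold change of -7.59 against -0.05 over all genes. The other 4, among them Pou5f1, are listed for mESCs alone and could not be tested. Summed over the 8 shared and 4 mESC-only genes, the list stood at 2291, 2243 and 2024 CPM in KO mESCs and, over the shared genes, at 16.1, 1.19 and 2.78 in KO MEFs. In bulk RNA, fewer cells of a type and less RNA per cell cannot be told apart.

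Pou5f1, which encodes Oct4, was at 1177, 778 and 1049 CPM in KO mESCs and has no MEF value. Nanog, the homeobox factor that stabilises self-renewal, was at 410.4, 684 and 312 CPM in KO mESCs and at 0.634, 0.515 and 0.664 in KO MEFs, -9.60 ± 0.44 (SE, adjusted p = 9.38e-06). The groups lay far apart, and no KO MEF library reached 1 CPM. The window around the start of Nanog is shown because, of all genes with a promoter window searched, Nanog is the only one to hold the composite SOX-OCT element that the core factors bind, spelled CATTGT, any base, ATGCAAA and searched on both strands. The window runs from 250 bases before to 50 after the start (RefSeq, GRCm38.p6, chr6:122707239-122707538, plus strand), with the element in capitals, ending 62 bases before the start.

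Nanog: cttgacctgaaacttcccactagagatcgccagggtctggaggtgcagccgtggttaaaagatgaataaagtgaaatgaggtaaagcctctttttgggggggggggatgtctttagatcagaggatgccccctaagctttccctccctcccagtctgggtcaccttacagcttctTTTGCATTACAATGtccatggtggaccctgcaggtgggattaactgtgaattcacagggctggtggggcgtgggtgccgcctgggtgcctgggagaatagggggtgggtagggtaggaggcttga

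The element was in 2 windows, 0.00609% of the 32851 searched, and both were overlapping windows of Nanog. Of the 28 genes of the core and naive lists, 17 were matched to 21 windows, and Nanog was the 1 gene with a match. A match describes these letters in this window and not a bound site.

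Sox2, the partner of Oct4, was at 132, 184 and 145 CPM in KO mESCs and at 6.74, 0 and 0.573 in KO MEFs, -5.97 ± 1.38 (SE, adjusted p = 0.00626). The cell types did not overlap, as was the case for 71.0% of all tested genes. Among KO MEFs library 1 held most of the Sox2 reads and library 2 none. KO MEF 1 was also the highest of the KO MEFs for Lin28a, the RNA-binding repressor of let-7, at 2.62, 0.309 and 0.0603 CPM against 13.1, 21.2 and 35.0 in KO mESCs. Tdgf1, the Nodal co-receptor, was at 118, 104 and 83.0 CPM in KO mESCs and had no read in any KO MEF library. It was at least 1121-fold lower there, against a floor of 3 counts in the KO MEF library of smallest normalised size. Trim71, an RNA-binding repressor of differentiation mRNAs, stood at -7.798 ± 0.71 (SE, adjusted p = 9.63e-05), and Gdf3, a TGF-beta family ligand, at -7.37 ± 0.90 (SE, adjusted p = 0.000339).

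The naive list separated the cell types as far as the core list did, with graded exceptions among the Klf genes. Of its 16 members 14 were tested and 13 were called higher in KO mESCs, 9 by 32-fold or more, with a median of -8.22, or -7.69 with genes at no count set to their bound. Dppa5a, an RNA-binding protein of the inner cell mass, was at 1886, 1101 and 1249.8 CPM in KO mESCs and at 0 in the KO MEFs, at least 15603-fold lower. Esrrb, the orphan nuclear receptor downstream of GSK3 inhibition, was at 435, 436 and 555 CPM in KO mESCs and had 1 read in the KO MEFs together, in library 1. With so few reads its ratio of 52179.6 has a 95% counting interval from 9365 to 2060980.0. Nr0b1, Tcl1 and Dppa5a had no read in any KO MEF library, and Prdm14, a repressor of the germ-layer programme, had 1.

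Tfcp2l1, a naive factor induced by LIF and by GSK3 inhibition, was the naive factor whose KO MEF level lay farthest above the floor, at 74.8, 60.9 and 27.5 CPM, while KO mESCs were at 881, 1099.8 and 1179.9, -4.28 ± 0.41 (SE, adjusted p = 0.000114). The groups did not overlap. Tbx3 was at 164, 152 and 150.5 CPM in KO mESCs and at 4.23, 2.6 and 6.18 in KO MEFs. Klf4, one of the reprogramming factors, was at 128, 184 and 112 against 16.2, 30.6 and 24.01 CPM, -2.58 ± 0.31 (SE, adjusted p = 0.000297), and Klf5 differed by -3.27 ± 0.31 (SE, adjusted p = 0.000115). Klf2 was the 1 tested member not called. Its level was 39.8, 29.0 and 21.2 CPM in KO mESCs and 6.68, 26.1 and 10.3 in KO MEFs, and the libraries overlapped, with KO MEF 2 above KO mESC 3. Without KO MEF 2 it was called, at -1.80 (adjusted p = 0.00712).

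**Figure D2:**
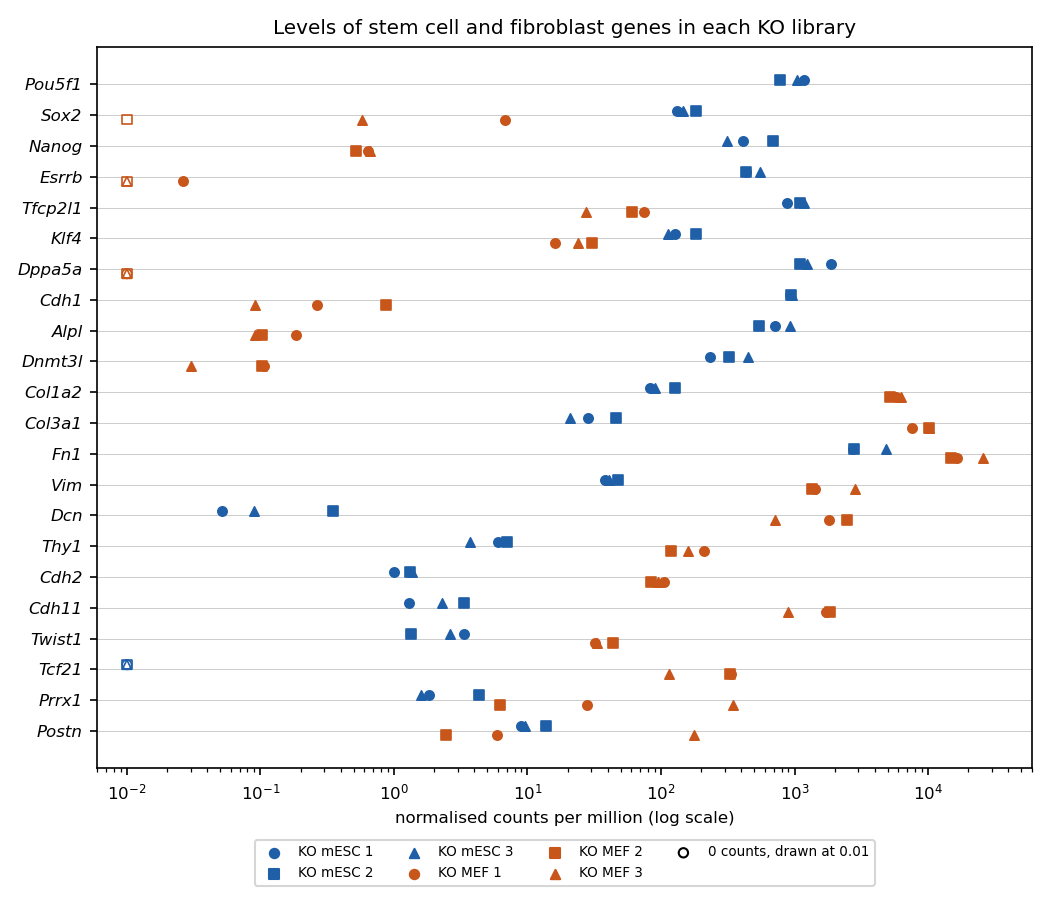
CPM (log scale) of 22 stem cell and fibroblast genes in each KO library, blue for KO mESCs and orange for KO MEFs, with the marker shape giving the library number and open markers at 0.01 for no count. Nanog, Cdh1 and Dnmt3l lie below 1 CPM in KO MEFs, Dcn and Cdh11 below 5 CPM in KO mESCs, and Postn and Prrx1 spread widely among the KO MEFs.

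Genes of the formative state, which follows the naive state as cells prepare for lineage choice, were mixed. Of 9 tested members 5 were called higher in KO mESCs and 2 in KO MEFs, beside 27.3% and 26.7% of all tested genes. The median was -1.90. Dnmt3b, a de novo DNA methyltransferase, was at 114, 108 and 163 CPM in KO mESCs and at 3.94, 4.61 and 3.2 in KO MEFs, -5.03 ± 0.28 (SE, adjusted p = 1.54e-05). Its relative Dnmt3a went the other way, at 71.3, 75.8 and 94.1 against 199, 179 and 127 CPM, 1.07 ± 0.23 (SE, adjusted p = 0.00422). The 2-fold call for Dnmt3a sat at the threshold and was lost without KO mESC 1 (0.97) or KO MEF 1 (0.96). Fgf5, a growth factor of formative cells, had 1 read in all KO mESCs and 1.51, 2.16 and 3.44 CPM in KO MEFs. Otx2, which drives the exit from the naive state, was low everywhere, at 3.43, 7.64 and 1.48 CPM in KO mESCs and 0.343, 0 and 0.0302 in KO MEFs, -5.02 ± 1.25 (SE, adjusted p = 0.00889).

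The DNA methylation machinery was split as well, but it shares Dnmt3a and Dnmt3b with the formative list and Tet2 with the naive list. Of its 9 genes 5 were called higher in KO mESCs and 2, Dnmt3a and Tet3, in KO MEFs. Over all tested genes the shares called in these directions were 27.3% and 26.7%. Dnmt3l, the catalytically inactive partner of the de novo enzymes, was at 233, 325 and 447 CPM in KO mESCs and at 0.106, 0.103 and 0.0302 in KO MEFs, -11.95 ± 0.49 (SE, adjusted p = 6.58e-06). Tet1, which oxidises 5-methylcytosine, differed by -5.34 ± 0.36 (SE, adjusted p = 2.97e-05), whereas Tet3, an enzyme of the same family, was higher in KO MEFs, at 76.5, 67.5 and 74.0 against 14.6, 29.3 and 14.6 CPM. The maintenance cofactor Uhrf1 stood at -3.11 ± 0.28 (SE, adjusted p = 9.47e-05), and Dnmt1, the maintenance methyltransferase, at -0.97 ± 0.18 (SE, adjusted p = 0.00252), just short of the 2-fold call.

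Epithelial adhesion genes, which embryonic stem cells share with epithelia, were the other large block on the mESC side. Of 18 tested genes of the surface and adhesion list 15 were called higher in KO mESCs, 10 of them by 32-fold or more, and 1 in KO MEFs. The median was -8.89, or -6.51 with genes at no count set to their bound. Cdh1, which encodes E-cadherin, was at 918, 947 and 964 CPM in KO mESCs and at 0.264, 0.876 and 0.0905 in KO MEFs, -11.13 ± 0.74 (SE, adjusted p = 2.82e-05). Alpl, the tissue-nonspecific alkaline phosphatase used to stain stem cell colonies, was at 717, 541 and 917 against 0.185, 0.103 and 0.0905 CPM, -12.44 ± 0.43 (SE, adjusted p = 5.29e-06). Epcam, an epithelial adhesion molecule, differed by -12.22 ± 0.60 (SE, adjusted p = 1.12e-05), and Fut9, which makes the SSEA-1 epitope, by -10.16 ± 0.58 (SE, adjusted p = 1.66e-05). Cldn6, a claudin of pluripotent epithelia, had no read in the KO MEFs and 9.69, 20.04 and 29.0 CPM in KO mESCs.

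Some epithelial genes did not follow E-cadherin. F11r, a tight junction adhesion molecule, was higher in KO MEFs, at 324, 429.5 and 358 against 167, 159 and 192 CPM, 1.10 ± 0.19 (SE, adjusted p = 0.0017), a 2-fold call lost with upper-quartile scaling (0.84). The splicing regulator Esrp2 was at 17.3, 20.04 and 14.7 CPM in KO MEFs and 10.52, 14.2 and 4.75 in KO mESCs and was called only with a GC correction (1.52, adjusted p = 0.0215, and with the blocking term added), while its paralog Esrp1 had no read in KO MEFs against 2.68, 3.04 and 5.6 CPM in KO mESCs. Grhl2, a transcription factor of epithelia, was at 20.9, 23.0 and 1.43 CPM in KO mESCs, where library 3 was low, and at 0.0528, 0.0773 and 0.0905 in KO MEFs. Krt18, a simple-epithelial keratin, was at 119.6, 97.5 and 33.5 CPM in KO mESCs and 31.4, 5.36 and 23.0 in KO MEFs, -2.07 ± 0.67 (SE, adjusted p = 0.0276). The groups did not overlap, yet the Krt18 call was lost without KO mESC 1 or 2 or KO MEF 3, with adjusted p up to 0.0981.

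The cadherin family showed the exchange most compactly. Cdh2, N-cadherin, was at 1.005, 1.33 and 1.37 CPM in KO mESCs and at 105, 83.7 and 95.2 in KO MEFs, 6.26 ± 0.25 (SE, adjusted p = 6.58e-06). Cdh11, the cadherin of mesenchymal cells, was at 1.29, 3.33 and 2.28 against 1731, 1838 and 901 CPM, 9.33 ± 0.56 (SE, adjusted p = 1.97e-05). Both were opposite to Cdh1, and none of the 3 overlapped between cell types, as was the case for 71.0% of all tested genes. Of the 11 cadherins tested 5 were higher in KO MEFs and 4 in KO mESCs, against 26.7% and 27.3% of all tested genes. Cdh3, P-cadherin of epithelia, was on the fibroblast side, at 243, 286 and 283 CPM in KO MEFs and 10.3, 14.5 and 33.6 in KO mESCs. Cdh10 and Cdh13 varied widely among KO MEFs, Cdh10 at 14.1, 2.71 and 35.3 CPM and Cdh13 at 14.03, 4.28 and 57.0, lowest in library 2 and highest in library 3 in both.

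Germline genes, several of which naive stem cells also express, were mostly on the mESC side. Of 9 tested members 7 were called higher in KO mESCs and 2 in KO MEFs, with a median of -7.90. Rhox5, an X-linked homeobox gene, was at 458, 464 and 68.7 CPM in KO mESCs and 0.264, 0.258 and 0.272 in KO MEFs, and Dazl, a translational regulator of germ cells, at 110.2, 67.0 and 4.19 and 0.0264, 0 and 0.0603. KO mESC 3 was the lowest of the KO mESCs in both and remained above every KO MEF. Summed over the list, KO mESCs stood at 776, 794 and 159 CPM and KO MEFs at 131, 374 and 129, so KO mESC 3 lay within the range of the KO MEFs. Most of the KO MEF sum came from Ddx4, the germ cell RNA helicase known as Vasa, at 106, 351 and 94.8 CPM against 15.1, 12.6 and 5.56 in KO mESCs, 4.05 ± 0.63 (SE, adjusted p = 0.00104). Tdrkh, a Tudor protein of the piRNA pathway, was higher in KO MEFs as well, 4.28 ± 0.51 (SE, adjusted p = 0.00032). Genes of the 2-cell-like state, a rare totipotent-like state in stem cell cultures, were near 0 in both KO cell types. In WT mESCs their sum was 23.8 and 18.5 CPM on the scale of all 11 libraries. None of the 12 was tested, since 7 fell below the filter on low counts and 5 are listed for mESCs alone. Their sum was 0.696, 0.29 and 0.314 CPM in KO mESCs and, for the genes listed for MEFs, 0.132, 0.18 and 0.181 in KO MEFs.

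Ranked by level alone among genes called 32-fold higher in KO mESCs, the first 10 were Dppa5a, Cdh1, Alpl, Coil, AU018091, Bex1, Esrrb, Nanog, Trap1a and Fabp3. Coil, the scaffold of Cajal bodies, was at 643, 1037 and 480.5 CPM in KO mESCs and at 12.1, 13.2 and 13.2 in KO MEFs, -5.81 ± 0.35 (SE, adjusted p = 2.08e-05). Bex1 and Trap1a, both X-linked, were at 868, 719 and 391 and 457, 476 and 292 CPM in KO mESCs, lowest in library 3 in both, and at 6.24, 0.464 and 2.35 and 0.0264, 0 and 0 in KO MEFs. The corresponding 10 genes of KO MEFs included Thbs1, Col3a1, Col1a2, Lox, Timp3, Col5a2, Bgn, Timp2 and Lgals1, which are, apart from the galectin Lgals1, matrix proteins, matrix enzymes or inhibitors of matrix proteases. Thbs1, thrombospondin, was at 152, 255 and 139 CPM in KO mESCs and at 13399, 13884 and 16584 in KO MEFs, 6.33 ± 0.42 (SE, adjusted p = 2.77e-05). Timp3, an inhibitor of metalloproteases, was at 13.8, 31.5 and 19.2 against 6412, 4355 and 3645 CPM, 7.802 ± 0.50 (SE, adjusted p = 2.41e-05). These genes were picked by their fold and level, so their values describe the rule and test nothing.

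Fibroblast markers were mostly on the MEF side. Of 21 tested 17 were called higher in KO MEFs, 8 of them by 32-fold or more, and 2 in KO mESCs, and the median was 4.72. Dcn, which encodes the collagen-binding proteoglycan decorin, was at 0.0515, 0.352 and 0.0896 CPM in KO mESCs and at 1824, 2461 and 717 in KO MEFs, 13.23 ± 0.90 (SE, adjusted p = 3.02e-05). Vim, the mesenchymal intermediate filament, was at 38.1, 47.2 and 40.9 against 1435, 1354 and 2853 CPM, 5.48 ± 0.39 (SE, adjusted p = 3.45e-05). S100a4, a calcium-binding protein of motile cells, differed by 9.72 ± 0.39 (SE, adjusted p = 6.58e-06), Thy1, a surface glycoprotein of fibroblasts, by 4.87 ± 0.35 (SE, adjusted p = 3.57e-05), and Lox, which cross-links collagen, by 6.498 ± 0.40 (SE, adjusted p = 2.09e-05). Fn1, fibronectin, was high in both, at 2757, 2772 and 4843 CPM in KO mESCs and 16568, 14816 and 25954 in KO MEFs, 2.47 ± 0.40 (SE, adjusted p = 0.00126).

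Pdgfra and Pdgfrb, the receptors for platelet-derived growth factor, behaved differently within the KO MEFs. Pdgfra was at 123, 247 and 53 CPM in KO MEFs and 3.74, 2.36 and 1.77 in KO mESCs, 5.75 ± 0.64 (SE, adjusted p = 0.000231). Pdgfrb was at 27.2, 2.06 and 280.2 CPM in KO MEFs and 4.3, 7.87 and 5.22 in KO mESCs, so KO MEF 2 lay below every KO mESC library, and the highest KO MEF was 136 times the lowest. Its call (4.15 ± 1.42, SE, adjusted p = 0.0334) was lost without KO MEF 3 (1.37, adjusted p = 0.217), without any single KO mESC library and in the fit with replicate number as a blocking term (adjusted p = 0.245). Lum, another collagen-binding proteoglycan, rested on KO MEF 2, at 0.74, 18.3 and 0.724 CPM against 0.696, 0.621 and 0.134 in KO mESCs, and stood at 0.62 without it. Postn, periostin, a matrix protein of activated fibroblasts, was at 5.92, 2.45 and 176 CPM in KO MEFs and 9, 13.7 and 9.57 in KO mESCs, 2.51 ± 1.36 (SE, adjusted p = 0.139), and turned to -1.33 without KO MEF 3. The 2 markers called higher in KO mESCs were Eng, a TGF-beta co-receptor, at 69.8, 112 and 89.8 against 2.09, 0.979 and 1.87 CPM, -5.78 ± 0.38 (SE, adjusted p = 2.73e-05), and Fbln1, a matrix glycoprotein, at 111, 80.3 and 137 against 6.47, 6.75 and 25.3, -3.09 ± 0.57 (SE, adjusted p = 0.00217).

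Fibrillar collagens and their processing enzymes were on the MEF side with 1 reversal. Of 17 genes 14 were called higher in KO MEFs and 1 in KO mESCs, with a median of 3.29. Col3a1 was at 28.6, 46.2 and 20.7 CPM in KO mESCs and at 7607, 10088 and 10233 in KO MEFs, 8.19 ± 0.48 (SE, adjusted p = 1.92e-05). Col1a1 and Col1a2, the chains of type I collagen, differed by 4.73 ± 0.49 (SE, adjusted p = 0.000168) and 5.85 ± 0.33 (SE, adjusted p = 1.57e-05). Serpinh1, the collagen chaperone HSP47, was at 262, 283 and 303 against 2086, 2046 and 2918 CPM, 3.06 ± 0.25 (SE, adjusted p = 6.12e-05). Col2a1, the cartilage collagen, was the exception, at 16.7, 10.54 and 16.2 CPM in KO mESCs and 2.64, 0.644 and 2.38 in KO MEFs, -2.94 ± 0.58 (SE, adjusted p = 0.00297). KO MEFs and KO mESCs did not overlap in any of these 5 genes, nor in 71.0% of all tested genes.

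Basement membrane genes did not lean to either side, with 4 of 10 called higher in KO MEFs, 3 in KO mESCs and a median of -0.27. Over all tested genes the shares were 26.7% and 27.3%. The type IV collagen gene Col4a1 was at 103, 128 and 348 CPM in KO mESCs and 3465, 2551 and 4392 in KO MEFs, and the laminin chain gene Lamb1 differed by 4.99 ± 0.38 (SE, adjusted p = 4.77e-05). Lama1, the laminin alpha chain of the early embryo, was the reverse, at 105, 75.9 and 134 CPM in KO mESCs and 0.951, 0.103 and 0.845 in KO MEFs, -7.38 ± 0.70 (SE, adjusted p = 0.000115). Lamc1, the gamma chain shared by most laminins, was at 774, 749.7 and 858 against 744, 699 and 768 CPM, -0.11 ± 0.19 (SE, adjusted p = 0.632).

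Mesenchymal transcription factors varied more among the KO MEFs than the fibroblast, collagen and basement membrane lists did. Of 25 tested 17 were called higher in KO MEFs and 1, Osr2, in KO mESCs, and the median was 3.90. The median coefficient of variation of the tested members was 77.3% among KO MEFs and 39.6% among KO mESCs, against 19.06% and 19.9% over all tested genes above 1 CPM in both groups. That minimum was not set for the list's members, some of which were below it, so these values are not like for like. Those that were even among the KO MEFs included Twist1, a driver of mesenchymal fate, at 32.3, 43.6 and 33.4 CPM against 3.35, 1.35 and 2.62 in KO mESCs, 3.90 ± 0.41 (SE, adjusted p = 0.000171), and Zeb2, a repressor of E-cadherin, at 112, 112 and 104 against 0.412, 1.12 and 0.381, 7.40 ± 0.47 (SE, adjusted p = 2.44e-05). Tcf21, a factor of epicardial and visceral mesenchyme, was at 332, 329 and 116 CPM in KO MEFs and had no read in the KO mESCs, at least 3349-fold higher. Tbx18, of the epicardium and the somites, was at 186, 172 and 88.4 against 4.48, 3.83 and 2.93 CPM, 5.31 ± 0.37 (SE, adjusted p = 3.23e-05).

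Of the 25 tested members of this list 17 were highest among the KO MEFs in library 3, and those named next were picked for that order after the values were seen, while Tcf21 and Tbx18 were lowest in library 3. Prrx1, the limb mesenchyme homeobox factor, was at 27.8, 6.21 and 343 CPM in KO MEFs and 1.83, 4.37 and 1.59 in KO mESCs, 5.59 ± 1.44 (SE, adjusted p = 0.0102). KO MEF 3, the highest, was 55.3 times KO MEF 2, the lowest, and the call was lost without KO mESC 1 (adjusted p = 0.0514) or with replicate number as a blocking term (adjusted p = 0.0597). Prrx2 was at 5.84, 5.38 and 47.5 CPM and Foxc1, a forkhead factor of paraxial mesoderm, at 8.53, 7.24 and 36.8, with KO MEF 3 highest in both. Foxd1, a factor of stromal precursors, was at 1.16, 0 and 15.9 CPM in KO MEFs and 0.258, 0.228 and 0.179 in KO mESCs, 4.67 ± 1.79 (SE, adjusted p = 0.0509), with a call in DESeq2 (adjusted p = 0.00378) and without KO MEF 2 (adjusted p = 0.00466). Summed, the list stood at 1006, 879.6 and 1288 CPM in KO MEFs and 65.5, 93.9 and 56.5 in KO mESCs. Over the leave-one-library-out fits, the members called higher in KO MEFs ranged from 14, without KO mESC 1, to 21, without KO MEF 2.

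Contractile genes of smooth muscle and myofibroblasts gave the same library order. Of 13 genes 9 were called higher in KO MEFs and none in KO mESCs, with a median of 3.12. On the mESC side edgeR and DESeq2 both called 0, and 0 were below an unadjusted p of 0.05. Acta2, smooth muscle alpha-actin, was at 60.3, 119 and 70.0 CPM in KO mESCs and 1009.9, 716 and 3239.7 in KO MEFs, 4.32 ± 0.64 (SE, adjusted p = 0.000827), and Tagln, the actin-binding protein SM22-alpha, at 30.7, 60.4 and 38.6 against 874, 482 and 1988, 4.69 ± 0.59 (SE, adjusted p = 0.000381). KO MEF 3 was highest and KO MEF 2 lowest in both. Cnn1, calponin, was at 26.8, 14.2 and 143 CPM in KO MEFs and 6.83, 11.49 and 9.05 in KO mESCs, 2.75 ± 0.81 (SE, adjusted p = 0.0181), a call that was lost without any single KO mESC library (adjusted p from 0.0547 to 0.077). Mylk, the myosin light chain kinase, had the opposite order among KO MEFs, at 233, 381 and 49.8 CPM against 0.773, 1.22 and 0.672 in KO mESCs, 7.95 ± 0.84 (SE, adjusted p = 0.00018). The list's call count ranged from 6 to 11 over the leave-one-library-out fits, 6 without KO mESC 1 or 2 and 11 without KO MEF 1.

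Many contractile genes carry a CArG box, the motif of serum response factor, near their start. The window of Myl9, a regulatory myosin light chain, is shown because it alone among the 11 windows of the 10 matched genes held a CArG box, on either strand, and 535 of all 32851 windows did (1.63%). It lies at chr2:156775214-156775513 on the plus strand (RefSeq, GRCm38.p6), with the box in capitals, ending 152 bases before the start.

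Myl9: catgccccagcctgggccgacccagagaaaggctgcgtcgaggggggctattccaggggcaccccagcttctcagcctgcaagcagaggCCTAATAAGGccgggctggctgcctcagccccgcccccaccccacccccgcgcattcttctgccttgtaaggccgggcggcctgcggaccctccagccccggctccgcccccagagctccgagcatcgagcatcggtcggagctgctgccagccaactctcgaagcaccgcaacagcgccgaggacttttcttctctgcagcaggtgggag

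Myl9 itself was at 9.33, 18.0 and 24.04 CPM in KO mESCs and 74.9, 22.9 and 351 in KO MEFs, 3.12 ± 0.91 (SE, adjusted p = 0.0178). KO MEF 2 fell within the range of the KO mESCs, and the call was lost without KO mESC 1 (adjusted p = 0.0758) or KO mESC 2 (adjusted p = 0.067).

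Targets of YAP and TEAD, the transcription factors that respond to cell spreading and to the Hippo kinases, were even among the KO MEFs. Of 9 genes 8 were called higher in KO MEFs, in the full fit and in each leave-one-library-out fit, with a median of 3.99. The median coefficient of variation among KO MEFs was 16.6%, not far from 19.06% over all tested genes above 1 CPM in both groups. Ctgf, named below, was less even. Axl, a receptor tyrosine kinase, was at 4.18, 8.3 and 5.8 CPM in KO mESCs and 901, 859.5 and 1078 in KO MEFs, 7.28 ± 0.36 (SE, adjusted p = 1.13e-05). Ankrd1, a muscle ankyrin repeat protein, was at 1.86, 5.32 and 1.55 against 105, 100.5 and 91.4 CPM, 5.08 ± 0.51 (SE, adjusted p = 0.000149), and Ctgf, a secreted matricellular protein, at 93.9, 182 and 169 against 649, 633 and 1444, 2.61 ± 0.42 (SE, adjusted p = 0.00115). Ajuba, a LIM domain protein that binds the Hippo kinases, was the 1 not called, at 114, 122 and 109 CPM in KO mESCs and 119, 138 and 122 in KO MEFs. The window of Ankrd1 is shown because it holds the core TEAD element, GGAATG, at a pair of places (RefSeq, GRCm38.p6, chr19:36119795-36120094, minus strand), ending 205 and 118 bases before the start.

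Ankrd1: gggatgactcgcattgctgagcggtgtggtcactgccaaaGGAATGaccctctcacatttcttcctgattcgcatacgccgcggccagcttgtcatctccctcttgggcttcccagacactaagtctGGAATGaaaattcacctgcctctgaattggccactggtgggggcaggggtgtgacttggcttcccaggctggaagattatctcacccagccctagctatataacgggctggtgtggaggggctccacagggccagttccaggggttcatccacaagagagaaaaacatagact

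Searched on both strands, this short element was in 4817 of all windows (14.7%) and in 7 of the 9 windows of the 8 matched genes of the list, those of Ajuba, Amotl2, Ankrd1, Axl, Cyr61 (Ccn1), Crim1 and Lats2. Ajuba holds it and was not called.

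The Hox genes separated the KO cell types by position in the cluster. Of 39 Hox genes 32 were tested, 14 called higher in KO MEFs and 7 in KO mESCs, with a median of 2.02. Hox genes are numbered along the cluster, low numbers being expressed anteriorly and high numbers posteriorly in the embryo. Among paralog groups 1 to 8, 18 genes were tested, 13 called higher in KO MEFs and 0 in KO mESCs. Among paralog groups 10 to 13, 10 genes were tested, 7 called higher in KO mESCs and 0 in KO MEFs. DESeq2 gave 0 on both of these empty sides, as did an unadjusted p of 0.05. In paralog group 9, Hoxd9 was called higher in KO MEFs (2.56 ± 0.77, SE, adjusted p = 0.0198, and 1.30, not called, without KO MEF 2) and the other 3 were not called. This split by number was described after the values were seen.

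The anterior genes had low levels in KO mESCs. Hoxb3 was at 0.232, 0.311 and 0.0448 CPM in KO mESCs and 20.3, 11.9 and 47.4 in KO MEFs, 7.06 ± 0.85 (SE, adjusted p = 0.00032), and Hoxb2 at 0.309, 0.311 and 0.134 against 12.4, 9.38 and 19.4, 5.76 ± 0.57 (SE, adjusted p = 0.000135). Hoxd8 was at 0.696, 1.1 and 0.582 against 46.9, 124 and 32.6 CPM, 6.41 ± 0.63 (SE, adjusted p = 0.000136), with KO MEF 2 the highest. Hoxa5 was at 4.12, 1.57 and 27.6 CPM in KO MEFs and 0.464, 0.683 and 0.314 in KO mESCs, 4.50 ± 1.10 (SE, adjusted p = 0.0081), with KO MEF 3 the highest. KO MEF 3 was the highest KO MEF for the genes of the Hoxa and Hoxb clusters named here, and KO MEF 2 for Hoxd8 and Hoxd9.

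The posterior genes were low in absolute terms, and more so in KO MEFs. Hoxb13 was at 11.6, 12.1 and 4.86 CPM in KO mESCs and had 1 read in the KO MEFs. Hoxc10 was at 4.82, 5.45 and 3.18 against 0.0528, 0.0258 and 0.422 CPM, -4.76 ± 0.96 (SE, adjusted p = 0.00339), and Hoxa13 at 1.16, 1.93 and 0.829 against 0, 0.0258 and 0.241, -3.89 ± 1.02 (SE, adjusted p = 0.0112). Hoxd13 was at 1.19, 1.22 and 1.25 CPM in KO mESCs and had 2 reads in KO MEF 1 and none in KO MEFs 2 and 3. Hoxc13 was not called, at 14.4, 13.4 and 19.3 CPM in KO mESCs and 16.2, 42.5 and 9.08 in KO MEFs. Over the leave-one-library-out fits the members called ranged from 10 to 19 for KO MEFs, 10 without KO MEF 3 or any KO mESC library and 19 without KO MEF 2, and from 5 to 9 for KO mESCs.

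**Figure D3:**
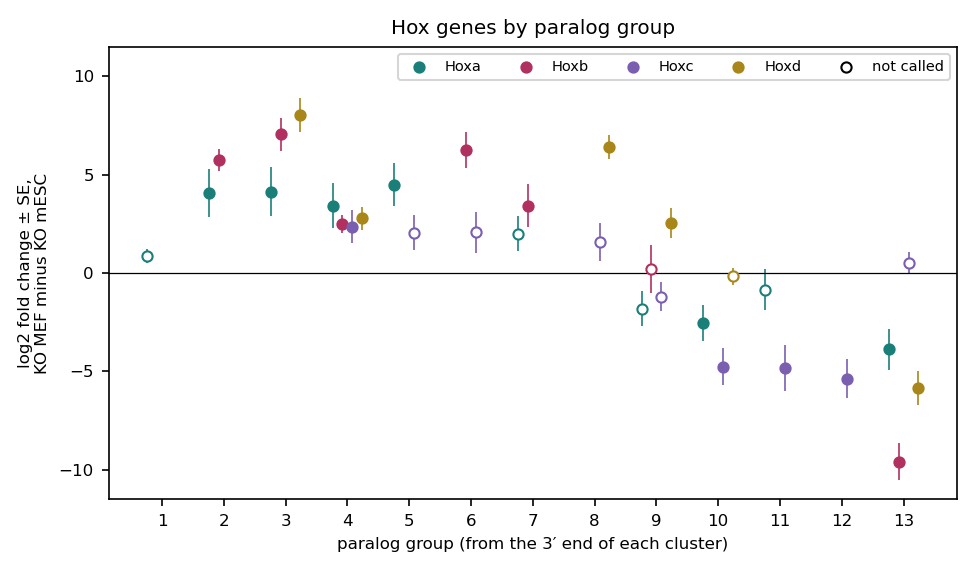
Log2 fold change ± SE, KO MEF minus KO mESC, of the 32 tested Hox genes by paralog group on the horizontal axis, coloured by cluster, with open circles for genes not called. Filled circles of groups 1 to 8 all lie above 0 and those of groups 10 to 13 all lie below 0.

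Cell cycle genes were called in both directions, as were 26.7% (higher in KO MEFs) and 27.3% (higher in KO mESCs) of all tested genes. Of 19 tested 8, namely Ccnd1, Ccnd2, Ccne2, Cdkn1a, Cdkn1c, Cdkn2b, Cdkn2c and Myc, were called higher in KO MEFs and 2, Ccnd3 and Mycl, in KO mESCs, with a median of 0.67. Ccnd2, cyclin D2, was at 6.11, 16.8 and 7.71 CPM in KO mESCs and 1598, 635 and 1408 in KO MEFs, 6.89 ± 0.60 (SE, adjusted p = 7.57e-05), and Ccnd1 at 35.9, 35.9 and 32.9 against 262, 60.9 and 247, 2.45 ± 0.50 (SE, adjusted p = 0.00344). Cdkn2b, the CDK inhibitor p15, differed by 2.87 ± 0.27 (SE, adjusted p = 0.000114), and Cdkn1a, p21, by 1.17 ± 0.30 (SE, adjusted p = 0.0106). The Cdkn1c call, 3.32 on the log2 scale, was lost without any single KO mESC library, without KO MEF 2 (1.58) and with replicate number as a blocking term (2.35, adjusted p = 0.218), and that of Ccnd3, -1.02, fell short of 2-fold with the blocking term (-0.997) and stood at -0.28 with a GC correction. The Cdkn1a call was lost without KO MEF 1 or with upper-quartile scaling (0.92 in both). Mitotic Ccnb1 was at 67.8, 70.2 and 69.1 CPM in KO mESCs and 36.5, 65.8 and 32.9 in KO MEFs and was not called, but was with a GC correction (-1.30, adjusted p = 0.00285). The Myc genes were exchanged between the cell types, Myc at 0.155, 0.538 and 0.179 CPM in KO mESCs and 34.7, 55.4 and 52.9 in KO MEFs, 7.32 ± 0.57 (SE, adjusted p = 5.03e-05), and Mycl at 15.8, 29.8 and 15.3 against 0.343, 0.232 and 2.08, -4.53 ± 0.88 (SE, adjusted p = 0.00283).

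Nuclear lamina and linker histone genes were called about as often as all genes, 3 of 10 in each direction. Lmna, which encodes the A-type lamins that stem cells largely lack, was at 47.1, 42.2 and 52.9 CPM in KO mESCs and 169.6, 162 and 414 in KO MEFs, 2.39 ± 0.39 (SE, adjusted p = 0.00119). Lmnb1 was not called, at 214, 232 and 189 against 159.8, 246 and 125 CPM. The architectural factors of the Hmga family were split, Hmga1 at -2.75 ± 0.67 (SE, adjusted p = 0.00777) and Hmga2 at 2.28 ± 0.62 (SE, adjusted p = 0.0134), the latter call lost without KO mESC 1 (adjusted p = 0.0641).

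The partners of ATXN7L3 were measured in the same fit. Usp22, the main deubiquitinase of the module, was at 253, 184 and 174 CPM in KO mESCs and 157, 139 and 157 in KO MEFs and was not called, nor was Usp27x. Usp51 was not called (-1.91 ± 0.85, SE, adjusted p = 0.0805), but was called higher in KO mESCs with a GC correction (-2.32, adjusted p = 0.0328) and without KO MEF 1 (-3.76, adjusted p = 0.00673). Eny2, a small adaptor of the module, was higher in KO MEFs, at 121, 172 and 97.5 against 30.6, 27.1 and 33.8 CPM, 2.09 ± 0.25 (SE, adjusted p = 0.000312), and so was the scaffold gene Atxn7, 1.79 ± 0.29 (SE, adjusted p = 0.00126). The H2B ubiquitin ligase genes Rnf20 and Rnf40 stood at 0.86 ± 0.16 (SE, adjusted p = 0.00254) and -0.41 ± 0.20 (SE, adjusted p = 0.113), neither reaching the 2-fold call, while Ube2b, an E2 enzyme, was at 1.71 ± 0.22 (SE, adjusted p = 0.000398) and the ligase cofactor Wac at 1.87 ± 0.22 (SE, adjusted p = 0.000271). Of the 13 genes 6, Atxn7l3 included, were higher in KO MEFs in edgeR and in DESeq2. On the mESC side both called 0, and 0 were below an unadjusted p of 0.05.

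Imprinted genes, which are expressed from a single parental copy, differed widely in level. Of 19 tested 10 were called higher in KO MEFs and 1, Snrpn, in KO mESCs, with a median of 2.44. Igf2, a fetal growth factor, was at 5.21, 7.95 and 4.66 CPM in KO mESCs and 36.6, 524 and 38.2 in KO MEFs, 5.07 ± 1.13 (SE, adjusted p = 0.00536), and Dlk1, a Notch-related ligand, at 1.34, 0.621 and 1.75 against 36.0, 190.4 and 3.35, 5.95 ± 1.35 (SE, adjusted p = 0.00576). KO MEF 2 was the highest in both. Grb10, a growth-inhibiting adaptor, was even, at 171, 211 and 149 against 2064, 2509 and 1552 CPM, 3.53 ± 0.28 (SE, adjusted p = 5.8e-05). H19, a maternally expressed RNA, was at 304, 109.7 and 8.92 CPM in KO mESCs and 256, 1957 and 65.0 in KO MEFs and was called in none of the fits but that with a GC correction and the blocking term (2.76), its libraries spreading widely within each cell type.

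Innate sensors, which stem cells keep low, were mostly on the MEF side. Of 17 genes of the sensing and interferon list 10 were called higher in KO MEFs and 3 in KO mESCs, with a median of 1.08. The list's sums overlapped, at 589, 403 and 632 CPM in KO mESCs and 766, 689 and 593 in KO MEFs. Ifih1, the RNA sensor MDA5, was at 0.258, 0.228 and 0.112 CPM in KO mESCs and 37.0, 39.4 and 12.3 in KO MEFs, 7.20 ± 0.65 (SE, adjusted p = 9.06e-05), and Tlr3, an endosomal RNA sensor, differed by 6.90 ± 0.67 (SE, adjusted p = 0.000126). Ifitm1, an interferon-induced membrane protein, was the reverse, -4.15 ± 0.45 (SE, adjusted p = 0.000205). Of 10 class I antigen presentation genes 5 were higher in KO MEFs and 1 in KO mESCs, against 26.7% and 27.3% of all tested genes. B2m, the light chain, was at 81.1, 50.4 and 45.5 CPM in KO mESCs and 796, 599.6 and 566 in KO MEFs, 3.47 ± 0.30 (SE, adjusted p = 7.57e-05).

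Markers of cell types other than fibroblasts were measured because a culture of a whole embryo body can hold them. Mesothelial markers, of the epithelium that lines the body cavities, were high in every KO MEF library. Of 9 tested 8 were called higher in KO MEFs and 0 in KO mESCs, in edgeR and in DESeq2, with a median of 9.73. Their sum was 11176, 10630.2 and 7223 CPM in KO MEFs and 204, 247 and 79.1 in KO mESCs. Upk3b and Upk1b, uroplakins of the mesothelium, were at 2293, 1808 and 1725 and 2923, 2492 and 1877 CPM in KO MEFs and at 0.644, 0.849 and 2.06 and 0, 0.0828 and 0.0224 in KO mESCs. Wt1, the transcription factor of mesothelium and epicardium, was at 180.4, 235 and 115 against 0.722, 0.29 and 0.426 CPM, 8.54 ± 0.48 (SE, adjusted p = 1.64e-05), and Lrrn4 differed by 9.73 ± 0.39 (SE, adjusted p = 6.58e-06). Gpm6a, a membrane glycoprotein, and Muc16, a mucin, had no read in the KO mESCs and were at least 27105-fold and 2869-fold higher in KO MEFs. The cultures labelled MEF held the fibroblast matrix genes together with this list, and KO MEF 3, the library highest in mesenchymal factors, was the lowest in it. The part of mesothelial cells in the other differences was not tested.

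Krt7, listed as a trophoblast marker and also a keratin of mesothelium, followed the same pattern, at 449, 580.5 and 192 CPM in KO MEFs and 3.79, 1.88 and 0.224 in KO mESCs, 7.70 ± 1.00 (SE, adjusted p = 0.000454). So did Gata6 and Gata4, endoderm and cardiac mesoderm factors, at 285, 385 and 173 and 98.5, 103 and 53.9 CPM in KO MEFs and 3.04, 1.015 and 0.627 and 6.21, 8.88 and 5.69 in KO mESCs. The remaining trophoblast genes did not move with Krt7, since 4 of the 6 tested, including Tfap2c, were called higher in KO mESCs. Of the endoderm list 5 of 7 tested were called higher in KO MEFs and 1 in KO mESCs. Foxa2, another endoderm factor, and Dab2 were among the 5, at 5.56 (adjusted p = 1.41e-07) and 6.15 (adjusted p = 3.58e-38) in DESeq2. Sox17, a defining endoderm gene, had no read in KO MEFs and Afp was at 0.132, 0.773 and 0.121 CPM.

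Macrophage genes were present in KO MEFs and uneven. Of the 12 markers 6 were tested and 5 were called higher in KO MEFs, and the summed level was 6462, 2324 and 894 CPM in KO MEFs and 86.9, 65.7 and 115 in KO mESCs, the latter mostly Cd68. Lyz2, lysozyme, was at 5369, 2051 and 725 CPM in KO MEFs and 0.129, 0.0414 and 0.134 in KO mESCs, and Csf1r, the receptor for the macrophage growth factor, at 262, 72.2 and 49.0 against 1.26, 1.14 and 0.0224. KO MEF 1 was highest throughout, and C1qb, listed for MEFs alone, was at 75.0, 1.24 and 1.42 CPM. Among the antigen presentation genes, the immunoproteasome subunit Psmb8, at 8.56, 2.86 and 1.51 CPM in KO MEFs, and the class I transactivator Nlrc5, at 7.53, 1.19 and 2.05, were highest in KO MEF 1 as well, and the part of macrophages in this was not tested. The defining endothelial marker Cdh5 was at 0.0264, 0.0773 and 0 CPM in KO MEFs, and the globin genes listed for MEFs had 2 reads in all, although the erythroid enzyme gene Alas2 was at 6.68, 1.24 and 11.4 CPM. Pecam1, an endothelial marker that stem cells also express, was on the mESC side, -10.44 ± 0.62 (SE, adjusted p = 1.95e-05). The endothelial list had 5 tested members, 1 called higher in KO MEFs and 2 in KO mESCs. In DESeq2 Esam was called higher in KO MEFs, at 1.94 (adjusted p = 0.00164), and Kdr was not called, at 2.09 (adjusted p = 0.0943). Of the neural list 2 of 8 tested were higher in KO MEFs and 3 in KO mESCs, and of the striated muscle list 1 and 2 of 4. Over all tested genes the shares were 26.7% and 27.3%.

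**Figure D4:**
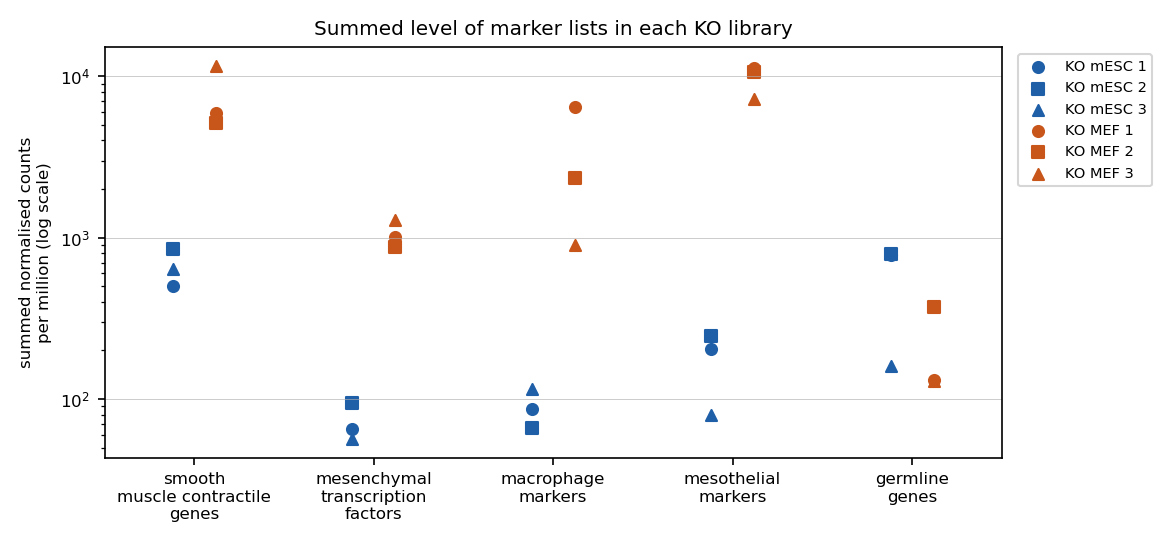
Summed CPM (log scale) of 5 gene lists in each KO library, blue for KO mESCs and orange for KO MEFs, with the marker shape giving the library number. Mesothelial sums lie between 7223 and 11176 in KO MEFs and between 79.1 and 247 in KO mESCs, KO MEF 3 is highest in smooth muscle and mesenchymal genes and lowest in macrophage and mesothelial genes, and KO mESC 3 is lowest in germline genes.

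The sex-linked genes separated libraries rather than cell types. Xist, the RNA of the inactive X, was at 50.0, 44.3 and 2.37 CPM in KO mESCs and 0.74, 0.309 and 0.241 in KO MEFs, and the Y-linked Ddx3y at 2.96, 0.766 and 191 and 222, 272 and 203. KO mESCs 1 and 2 thus differed from KO mESC 3 and from the 3 KO MEFs, and without KO mESC 3 the calls of this list for KO MEFs went from 1 to 4. The lower germline sum of KO mESC 3 moved with this difference, and the part of sex in it was not tested. The lists' calls were little changed by leaving out genes on X and Y, 159 for KO MEFs and 86 for KO mESCs in place of 160 and 91.

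Reference genes were close to even. Of 12 tested 0 were called higher in KO MEFs, in edgeR and in DESeq2 (3 at an unadjusted p of 0.05), 1 was called higher in KO mESCs, and the median was -0.40. Actb was at 1693, 1576 and 1084 CPM in KO mESCs and 2176, 2162 and 3017 in KO MEFs, 0.76 ± 0.27 (SE, adjusted p = 0.041), or 1.21 and called with a GC correction, and Tbp, the TATA-binding protein, at 33.4, 32.8 and 35.5 against 29.9, 32.4 and 22.2. At the level of single genes 71.0% of all tested genes had no overlap between the 3 KO MEF and the 3 KO mESC libraries, so an absence of overlap by itself sets no list gene apart.

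Whether the gap between cell types was the same in WT was tested as an interaction in 1 fit of all 11 libraries, over 19326 genes, of which 2205 were called (11.4%). Among list members 72 of 392 were called (18.4%), 33 with the KO gap shifted towards MEFs and 39 towards mESCs. These directions rest on the libraries labelled Atxn7l3-/-, and both gaps share the estimate of spread. Of the 8 tested core pluripotency genes 1, Lin28a, and of the 14 naive genes 2 were called. The KO and WT gaps of the other members were not shown to differ, which does not show them to be equal. Nanog stood at -9.98 in WT and -9.63 in KO, with a difference of 0.35 ± 0.50, SE, adjusted p = 0.661.

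Tfcp2l1 was the naive gene with the smaller gap in KO, -9.63 in WT and -4.30 in KO, a difference of 5.33 ± 0.51, SE, adjusted p = 0.000597. The WT MEFs were at 1.24, 1.56 and 1.07 CPM and the KO MEFs at 75.2, 60.4 and 27.2, with no overlap. Lrrn4, of the mesothelial list, had the smallest adjusted p among the list members, -1.13 in WT and 9.70 in KO (10.83 ± 0.68, SE, adjusted p = 3.11e-05), and 6 of the 9 mesothelial markers were called, all with the KO gap higher. Their sum was 105, 61.1 and 66.7 CPM in WT MEFs and 11226, 10557 and 7169 in KO MEFs, without overlap. The germline helicase Ddx4 turned from -5.35 in WT to 4.03 in KO (9.37 ± 1.05, SE, adjusted p = 0.00139), being at 0.388, 1.38 and 0.439 CPM in WT MEFs and 106, 348 and 94.1 in KO MEFs. Myc stood at 2.38 in WT and 7.29 in KO (4.91 ± 0.72, SE, adjusted p = 0.00494), with KO mESCs at 0.154, 0.557 and 0.18 CPM and WT mESCs at 7.69 and 7.41.

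Some collagen, contractile and Hox genes were shifted the other way. Of the 17 fibrillar collagen and processing genes 3 were called, all towards mESCs. Col2a1 stood at 6.23 in WT and -2.96 in KO (-9.18 ± 0.95, SE, adjusted p = 0.000898), Col11a1 at 8.30 and 3.97 (-4.33 ± 0.84, SE, adjusted p = 0.0137) and Col5a1 at 6.10 and 2.62 (-3.48 ± 0.78, SE, adjusted p = 0.0224). Of the 13 smooth muscle genes 5 were called, all towards mESCs, Acta2 at 8.65 in WT and 4.28 in KO (-4.37 ± 1.21, SE, adjusted p = 0.0431) and Myh11 at 5.99 and 0.95 (-5.04 ± 0.67, SE, adjusted p = 0.00384). The summed contractile level was 16070.2, 16532 and 25602 CPM in WT MEFs and 5981, 5115 and 11534 in KO MEFs, so every KO MEF was below every WT MEF. Of 38 Hox genes tested here 11 were called, 10 towards mESCs and Hoxd1 towards MEFs. Among paralog groups 10 to 13, 7 genes were called, such as Hoxa10 at 4.97 in WT and -2.56 in KO (-7.53 ± 1.62, SE, adjusted p = 0.0196). Hoxa10 was at 7.32, 64.4 and 10.1 CPM in WT MEFs and 0.451, 0.0768 and 1.26 in KO MEFs.

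These calls rest on 2 WT mESC libraries. Without the first of them the list members called fell to 14 towards MEFs and 4 towards mESCs, and without the second to 16 and 10, while without KO MEF 3 they were 43 and 82. In every alternative and leave-one-library-out fit that tested them, 17 of the 72 kept the call. Among them were Atxn7l3, Tfcp2l1, Ddx4, Myc, Col2a1, Eng, Nt5e, Myh11, Krt18 and the mesothelial genes Wt1, Upk3b, Msln, Lrrn4 and Muc16.

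**Figure D5:**
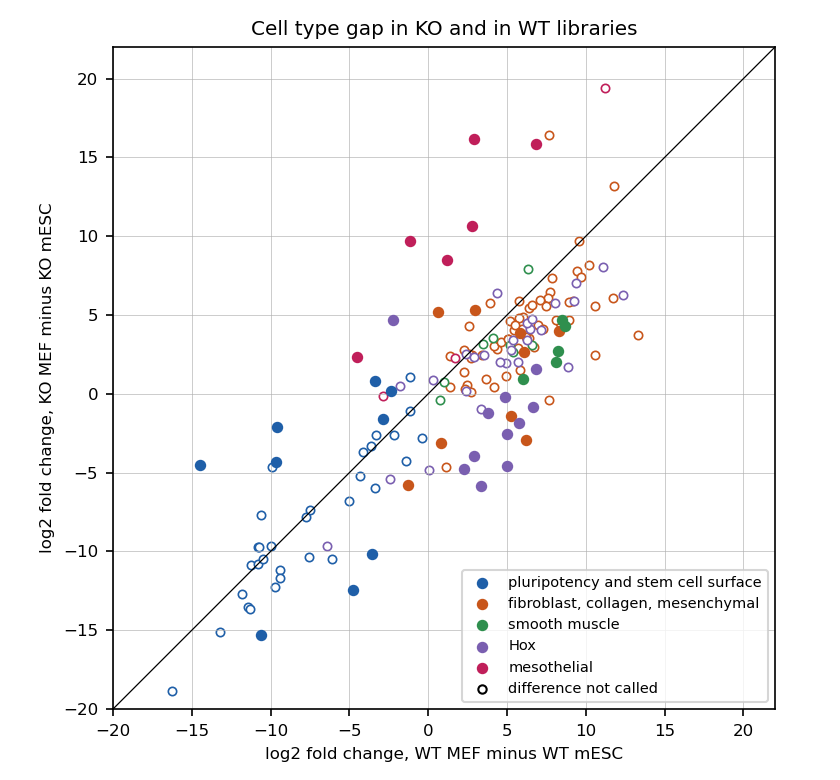
Log2 fold change between cell types in KO (vertical axis) against WT (horizontal axis), both from the fit of all 11 libraries and MEF minus mESC, for members of 5 groups of lists, filled where the difference of the gaps was called and open where it was not, with the diagonal marking equal gaps. Mesothelial genes lie above the diagonal, smooth muscle genes below it, and most pluripotency genes lie near it in the lower left.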

How the data were processed

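Poly(A)+ RNA-seq libraries of 6 Atxn7l3-/- samples (3 mESC, 3 MEF) and, for the interaction, 5 WT samples (2 mESC, 3 MEF) were used. The authors' tables were deposited per cell type and hold raw read counts per Ensembl gene, made per the methods with cutadapt 1.10, STAR 2.5.3a (mm10) and HTSeq 0.6.1p1. The strand setting is not given in the sources used here. The authors also deposited a signal per gene, the count divided by a DESeq2 size factor set within each table and by transcript length in kb, which served for 1 alternative filter. The deposited columns of fold changes and p-values (DESeq2 1.16.1), KO against WT within a cell type, were not used. The authors left out 1 WT mESC dataset, which is not analysed here.

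The tables list 31518 (mESC) and 29450 (MEF) genes. They were joined on the Ensembl gene ID, giving 26398 genes, and the 3052 MEF-only and 5120 mESC-only genes have a value in 1 cell type and no test. The MEF table lists no gene without a count and the mESC table lists 411, and whether a gene missing from a table was at 0 is not given in the sources used here. Mapping and counting are shared by both cell types, but the tables were made separately.

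Counts were tested with edgeR 4.0.16 in R 4.3.3 (filterByExpr with a minimum count of 10, TMM normalisation, quasi-likelihood test, Benjamini-Hochberg adjustment over all genes tested). A call needed an adjusted p of 0.05 or less and a log2 fold change of 1 or more in size, and a 32-fold call needed 5. The interaction was called at an adjusted p of 0.05 or less. CPM values were scaled over 6 libraries, or over 11 where stated. Library totals ran from 35050190 to 45963728. Intervals and the floor of 3 counts cover counting error only. P-values measure the spread between these cultures.

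The named genes are list members where a passage is about the list, the 10 genes of highest level among the 32-fold calls in each direction, and list members called in the interaction. The members and lists were chosen with earlier results of these data known. Alternatives were DESeq2 1.42.0, other scalings and filters, a test against a 2-fold change, all 11 libraries in 1 fit, single-table genes kept at 0, X and Y left out, a minimum of 10 normalised reads per kb from the deposited columns, a GC correction (GENCODE M21 gene models), the replicate block and leaving out each library. A few of the named genes are not reported here. Promoter windows are from RefSeq (GRCm38.p6).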

Additional observations from a re-analysis of the deposited data

Results flagged for a closer look

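The gap between MEFs and mESCs differed between genotypes in 72 list members, by edgeR's quasi-likelihood test of the interaction over all 11 libraries at an adjusted p of 0.05 or less. Values are given for 71 of them. Each is the log2 gap between cell types in KO minus that in WT, so that a value above 0 means a KO gap shifted towards MEFs. For Lin28a, Esrrb, Usp17la, Usp17lc, Six2, Hoxd12, Hoxd13, Tie1 and Muc16, 9 genes in all, at least 1 of the 4 groups held 3 counts or fewer, and their fitted values are no bound on a fold. All values rest on 2 WT mESC libraries.

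Among stem cell genes, the core factor stood apart as Lin28a at 9.91, the naive factors were Esrrb at -4.69 and Tfcp2l1 at 5.33, and the formative gene was Dnmt3b at 1.93. Surface and adhesion genes went both ways, Alpl at -7.71 and Fut9 at -6.64 against Sema4b at 1.31, Esrp2 at 4.17 and Krt18 at 7.49. 2-cell-like state and germline genes were Usp17la at 7.98, Usp17lc at 8.41 and Ddx4 at 9.37. Usp17la was at 5.19 and 3.15 CPM in WT mESCs and at 0.129, 0.0429 and 0.0225 in KO mESCs, on the scale of all 11 libraries. In MEFs it stayed low, at 0, 0 and 0.0488 CPM in WT and 0.0531, 0.0256 and 0.15 in KO. Cell cycle genes shifted towards MEFs were Ccne2 at 2.42, Ccnb1 at 1.71, Mycn at 4.58 and Myc at 4.91, while the CDK inhibitor genes went the other way with Cdkn2a at -2.84 and Cdkn2b at -2.46.

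Mesothelial markers were all shifted towards MEFs, Wt1 at 7.32, Upk3b at 7.87, Upk1b at 9.02, Msln at 6.83, Lrrn4 at 10.83 and Muc16 at 13.31. The same direction was found for Krt7 at 9.72 from the trophoblast list, for the endoderm and cardiac factors Gata4 at 4.24 and Gata6 at 4.98 and for the endothelial receptor Tie1 at 5.598. Neural and striated muscle genes were Map2 at -3.00, Stmn2 at -6.24 and Ryr2 at -4.16.

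On the mesenchymal side, fibroblast markers were Fbln1 at -3.90, Eng at -4.50 and Nt5e at 4.58, and the transcription factors were Twist1 at -1.92, Tbx18 at 2.30 and Six2 at -6.63. Fibrillar collagen genes were Col2a1 at -9.18, Col5a1 at -3.48 and Col11a1 at -4.33, and basement membrane genes were Lama1 at -2.69, Lamb1 at 1.70 and Nid1 at -2.03. Contractile genes were all shifted towards mESCs, Acta2 at -4.37, Tagln at -3.81, Cnn1 at -5.52, Myh11 at -5.04 and Actg2 at -6.07. The muscle cadherin gene was Cdh15 at -5.598, and the YAP/TEAD target was Cyr61 at -1.51. The Hox genes were Hoxa9 at -7.57, Hoxa10 at -7.53, Hoxa11 at -7.52, Hoxa13 at -6.83, Hoxc8 at -5.26, Hoxc9 at -4.998, Hoxc10 at -7.08, Hoxd10 at -5.08, Hoxd12 at -9.63 and Hoxd13 at -9.23, with Hoxd1 at 6.94 as the exception.

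The remaining genes belong to smaller sets. Antigen presentation and interferon genes were Tap1 at -2.54, Tap2 at -3.00 and Ifitm3 at -1.97 against Ddx58 at 2.37. Nuclear envelope genes were Lmnb1 at 2.09 and Emd at -1.67, and imprinted genes were Igf2r at -2.30 and Peg10 at 4.39. The targeted gene was Atxn7l3 at 5.97, with its reads in the KO MEF libraries as given above, and the ligase cofactor was Wac at 1.47. None of the 72 changed sign under the alternatives tried or without any single library, wherever a setting tested them.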

How the results depend on the processing

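No named gene that was called changed sign under any alternative, or without any single library, that tested it. Of 149 such genes 14 lost the call under at least 1 setting, 5 of them with the replicate number as a block. The other 135 kept it in every setting that tested them. A setting that left a gene out or gave it no adjusted p was not counted as a loss. Another 11 named genes that were not called gained a call under at least 1 setting, namely Actb, Ccnb1, Cd68, Ddx3y, Dnmt1, Esrp2, Foxd1, H19, Klf2, Postn and Usp51. Requiring at least 10 counts in every library, which leaves out genes absent from 1 cell type by construction, reduced the calls to 2927 for KO MEFs and 2730 for KO mESCs, the 32-fold calls to 256 and 75, and the list members called for KO mESCs to 36. The other alternatives kept each of these counts within 1.5 times. Upper-quartile scaling, which moved the median of all genes to -0.30, gave 3758 calls for KO MEFs and 5306 for KO mESCs, or 41.5% for KO MEFs in place of 49.4%. Leaving out 1 library at a time gave 4132 to 4569 and 4126 to 4890 calls.

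The count for the difference of the gap between genotypes was less stable. DESeq2 gave 2074 genes towards MEFs and 2216 towards mESCs, with 53 and 76 list members, in place of 1187 and 1018, with 33 and 39. Leaving out 1 library gave 197 to 1531 and 56 to 1609 genes, and 14 to 43 and 4 to 82 list members, lowest without WT mESC 1 and highest without KO MEF 3.

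No pairing by replicate number was seen. The deviations of same-numbered libraries correlated at -0.0197, -0.0264 and 0.0716, and KO MEF 1 was closest to KO mESC 2, at 0.113. Such correlations cannot show that the samples were unpaired. With the replicate number as a block, 4291 genes were called for KO MEFs and 4316 for KO mESCs in place of 4416 and 4516, and the gap differed in 754 genes towards MEFs and 735 towards mESCs.

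The genes that changed sign were all uncalled. With upper-quartile scaling Ajuba was at -0.13. With a GC correction Rnf40 was at 0.26, and with the GC correction and the replicate block at 0.26 and Postn at -0.69. Over the fits leaving out 1 library, Hoxc13 ranged from -0.28 to 0.94, Cd68 from -1.30 to 0.039, Postn from -1.33 to 3.10 and Usp27x from -0.44 to 0.20. The cause was not tested. At 35050190 to 45963728 counts per library, a gene with 3 counts or fewer in a group gives no usable fold.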
